A study of Mus musculus with 8 samples.

Results

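Lhx2, Pou3f3 and Zbtb18 are 3 transcription factor genes of the developing cerebral cortex, 3 of the 311 genes that could be named on the array, and each was measured by 1 of its 33012 gene probes. The probes were taken by their RefSeq transcript, which is NM_010710.2 for Lhx2, NM_008900.1 for Pou3f3 and NM_013915.1 for Zbtb18. The genes were picked because earlier results of these same arrays showed them lower in GFP+ cells. Their difference between the sorted fractions is therefore given as a description, with no test.

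GFP+ cells of the cerebral cortex of GAD67-EGFP+/- mice at postnatal day 0 were set against the GFP- cells of the same tissue, with 4 biological replicates of each. All animals carried the same reporter genotype, in which EGFP marks cells that use the gene of GAD67. This enzyme makes GABA, the main inhibitory transmitter. Cells were dissociated, sorted on fluorescence and lysed without culture, and amplified RNA labelled with digoxigenin was hybridised to 8 one-colour arrays. The GFP- fraction is a mixture and not 1 cell type, since progenitors, glia, blood and vessel cells escape a GABAergic label as excitatory neurons do. The sources used here do not say whether pups were pooled for a replicate.

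The cortex forms in the pallium, the dorsal part of the telencephalon, where progenitors make the excitatory neurons. Most cortical GABAergic neurons are born in the ventral telencephalon and migrate into the cortex. Lhx2 encodes a LIM-homeodomain factor that sets cortical identity in pallial progenitors. Pou3f3, also called Brn1, encodes a POU factor of cortical progenitors and upper-layer neurons. Zbtb18, also called RP58, encodes a zinc-finger repressor with a BTB domain that is needed for the maturation and migration of excitatory cortical neurons.

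Promoter windows of the 3 genes are shown because the genes were all lower in the same cells. In the RefSeq tables of assembly GRCm38.p6, Lhx2 lies at chr2:38339271-38369737, Pou3f3 at chr1:42695768-42700210 and Zbtb18 at chr1:177442351-177450764. The windows run from 250 bases before to 50 bases after a start site, on the plus strand, and are credited to RefSeq. Capitals mark CATCTG, the core of the element that Zbtb18 protein is known to bind. The Lhx2 window shown is chr2:38351058-38351357, that of Pou3f3 is chr1:42695518-42695817 and that of Zbtb18 is chr1:177442101-177442400. Lhx2 has 2 windows in the table, and the one shown, which lies inside the gene, was picked because it holds CATCTG. The other, chr2:38339031-38339330 at the start of the gene, holds none and is not printed. Zbtb18 has 5 windows, of which the one at the start of the gene is shown.
Lhx2: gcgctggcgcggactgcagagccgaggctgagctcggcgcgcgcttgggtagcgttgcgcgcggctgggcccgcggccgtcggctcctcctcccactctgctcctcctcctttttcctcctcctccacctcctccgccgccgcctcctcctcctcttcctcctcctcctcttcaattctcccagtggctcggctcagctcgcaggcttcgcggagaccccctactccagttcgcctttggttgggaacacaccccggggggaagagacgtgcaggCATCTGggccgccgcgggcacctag
Pou3f3: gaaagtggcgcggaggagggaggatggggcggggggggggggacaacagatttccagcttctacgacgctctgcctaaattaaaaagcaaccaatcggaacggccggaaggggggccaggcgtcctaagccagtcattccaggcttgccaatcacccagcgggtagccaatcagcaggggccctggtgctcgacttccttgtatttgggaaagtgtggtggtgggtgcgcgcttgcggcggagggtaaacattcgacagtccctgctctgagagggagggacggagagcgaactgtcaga
Zbtb18: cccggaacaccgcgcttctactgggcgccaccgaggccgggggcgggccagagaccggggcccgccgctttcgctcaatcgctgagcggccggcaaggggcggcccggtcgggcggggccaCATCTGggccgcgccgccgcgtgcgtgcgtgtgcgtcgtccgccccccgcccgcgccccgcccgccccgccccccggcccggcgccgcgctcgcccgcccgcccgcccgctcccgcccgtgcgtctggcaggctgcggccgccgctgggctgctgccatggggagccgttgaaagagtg

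CATCTG, searched on both strands, was in 6 of the 8 windows listed for the 3 genes, against 17.2% of all 32851 windows in the table. The 6 were all 5 Zbtb18 windows and 1 of the 2 Lhx2 windows, and the single Pou3f3 window held none. Overlapping windows shared a site, so the 6 windows gave 5 distinct sites, 4 of them in Zbtb18. The share of genes with CATCTG in any window was not counted, so no excess is read from these numbers. The homeodomain core TAATTA and the POU octamer ATGCAAAT, each searched on both strands, were in 0 of the 8 windows. They were in 5.29% and 1.74% of all windows. No motif overlapped another in these windows. The sites are set out below with 10 bases on each side, so that their surroundings can be compared.
Lhx2, chr2:38351323-38351348: gacgtgcaggCATCTGggccgccgcg
Zbtb18, chr1:177442212-177442237: ggcggggccaCATCTGggccgcgccg
Zbtb18, chr1:177444575-177444600: gtagcatttcCATCTGaacatgatgt
Zbtb18, chr1:177444713-177444738: ctccactttgCATCTGtctctcttag
Zbtb18, chr1:177445621-177445646, read on the minus strand: agcttataaaCATCTGatccagctga

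The Lhx2 site began 25 bases downstream of its start site, and the Zbtb18 site in the window printed in full began 129 bases upstream. Both continue for the same 12 bases, CATCTGGGCCGC. That run was in 2 of the 32851 windows, these same windows. It was picked as the longest run the sites share, after they had been read, so its rarity is a description and supports nothing. Both windows were rich in G and C, with 69.3% for Lhx2 and 81.7% for Zbtb18, against a median of 52.7% over all windows. A match of letters is not a bound site.

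Lhx2 was the gene of the 3 with the least signal left in GFP+ cells. The deposited signal of its probe was 2734.28, 1709.98, 1079.49 and 5779.97 on GFP+ arrays 1 to 4, against 103684, 77170.25, 58015.27 and 59343.27 on GFP- arrays 1 to 4. Every GFP+ array read below every GFP- array, and GFP+ replicate 4 read highest of its group. After quantile normalization the log2 signal was 11.30 ± 0.97 in GFP+ cells and 16.15 ± 0.16 in GFP- cells (SD, n = 4 each). The difference was −4.85 ± 0.43 (SE of the fit over all probes), or 28.8-fold lower. In sorted bulk RNA, fewer cells that make a transcript and less transcript per cell cannot be told apart.

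The 4 same-numbered pairs did not give the same loss of Lhx2. The log2 difference was −5.02, −5.24, −5.59 and −3.53 in pairs 1 to 4. The GFP+ fraction thus kept 3.09%, 2.64%, 2.08% and 8.63% of the normalized GFP- signal. Pair 4 stood apart from the other pairs, which lay close together. Without pair 4 the mean difference was −5.28 ± 0.29 (SD, n = 3 pairs), or 39.0-fold, with 2.57% of the signal left.

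The spot behind the high value was a noisy one by its score. Each spot comes with a signal-to-noise score, and signal divided by that score was used as an estimate of the noise of the spot. The score is not exactly the deposited signal over noise, since a dim probe can have a positive signal and a negative score. The Snap25 probe on GFP- replicate 3 had a signal of 248.3 and a score of −2.31. The estimate is therefore rough. For Lhx2 on GFP+ replicate 4 the score was 3.14 and the noise 1841, against scores of 8.19, 8.58 and 3.52 and noise of 333.9, 199.3 and 306.7 on GFP+ replicates 1, 2 and 3. On the same array 1648 other gene probes had a positive score and a signal within 20% of that of Lhx2. Of these, 98.8% were less noisy. Its noise was 6.57 times their median. The spot carried the quality flag 0, as did all 24 spots of the 3 genes. The remaining spots had noise of 0.54 to 1.66 times the median of probes of like signal. Lhx2 on GFP+ replicate 3 had nearly as low a score, 3.52, and read lowest of its group. What made the spot on GFP+ replicate 4 noisy, and whether noise raised its value, was not tested.

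**Figure D1:**
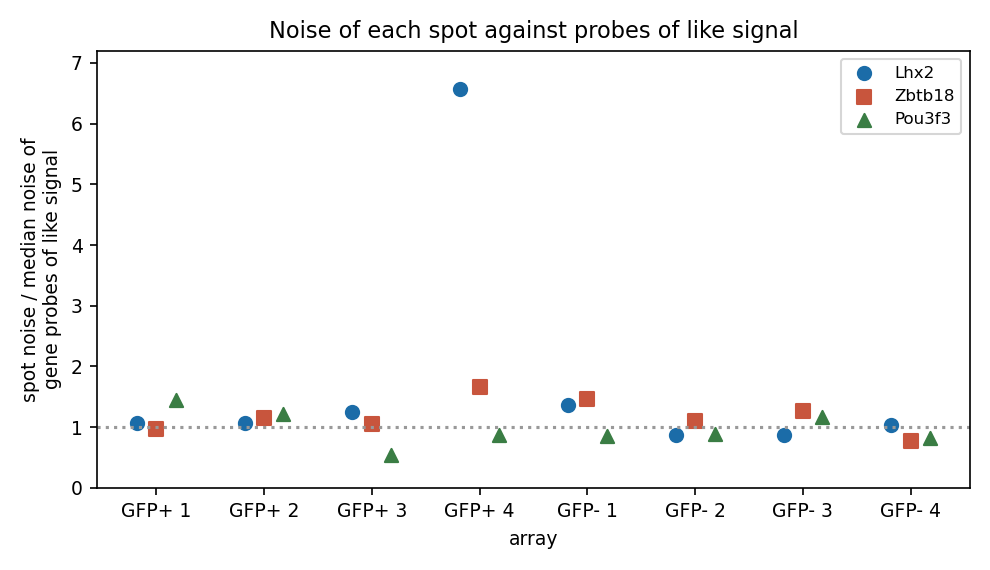
Estimated noise of each spot (signal over its signal-to-noise score) divided by the median of like gene probes on the same array. Those have a positive score and a signal within 20%. The 3 genes are shown on the 4 GFP+ and 4 GFP- arrays, 1 point per spot. Lhx2 on GFP+ replicate 4 lies at 6.57, and the remaining spots lie between 0.54 and 1.66.

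Zbtb18 showed the most even loss of the 3 genes. Its deposited signal was 109699.83, 69326.98, 69457.38 and 68768.76 on GFP+ arrays 1 to 4, against 1211180.64, 1013584.68, 918935.96 and 917447.5 on GFP- arrays 1 to 4. The groups were far apart, and on either side replicate 1 read highest before normalization. The normalized log2 signal was 16.24 ± 0.14 in GFP+ cells and 19.91 ± 0.19 in GFP- cells (SD, n = 4 each). The difference was −3.67 ± 0.16 (SE), or 12.7-fold lower.

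In the pairs the log2 difference of Zbtb18 was −3.55, −3.84, −3.65 and −3.64, an SD of 0.12, against an SD of 0.91 for Lhx2. The GFP+ fraction kept 8.54%, 6.98%, 7.98% and 8.05% of the GFP- signal in pairs 1 to 4. This remainder was well measured, with signal-to-noise scores of 38.8 to 76.4 on the GFP+ arrays. On the GFP- arrays the probe read 28.6% to 48.5% of the brightest gene probe, so it was not the top of the scale. Whether the scanner's response was linear at that brightness was not tested.

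Pou3f3 kept the most signal. Its deposited signal was 6865.79, 7954.91, 4588.27 and 5084.16 on GFP+ arrays 1 to 4, against 25761.32, 24303.95, 11297.88 and 17286.68 on GFP- arrays 1 to 4. The groups did not overlap, but the highest GFP+ array and the lowest GFP- array were near each other. After normalization that gap was 0.35 on the log2 scale, against 3.30 for Lhx2 and 3.21 for Zbtb18. The normalized log2 signal was 12.59 ± 0.41 in GFP+ cells and 14.17 ± 0.47 in GFP- cells (SD, n = 4 each), a difference of −1.58 ± 0.29 (SE), or 3.00-fold lower.

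The loss of Pou3f3 differed between pairs, with −1.83, −1.48, −1.16 and −1.86 on the log2 scale. The GFP+ fraction kept 28.0%, 35.9%, 44.6% and 27.5% of the GFP- signal. Pair 3 kept most, and there the GFP- array had the lowest normalized signal of its group, 13.54, against 14.17 to 14.67 on the others. GFP+ replicate 2 read 13.19, against 12.34 to 12.44 on the other GFP+ arrays. The same-numbered GFP- array also read highest of its group, 14.67. On the GFP+ arrays the signal-to-noise score of the Pou3f3 probe was 14.3 to 33.7.

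**Figure D2:**
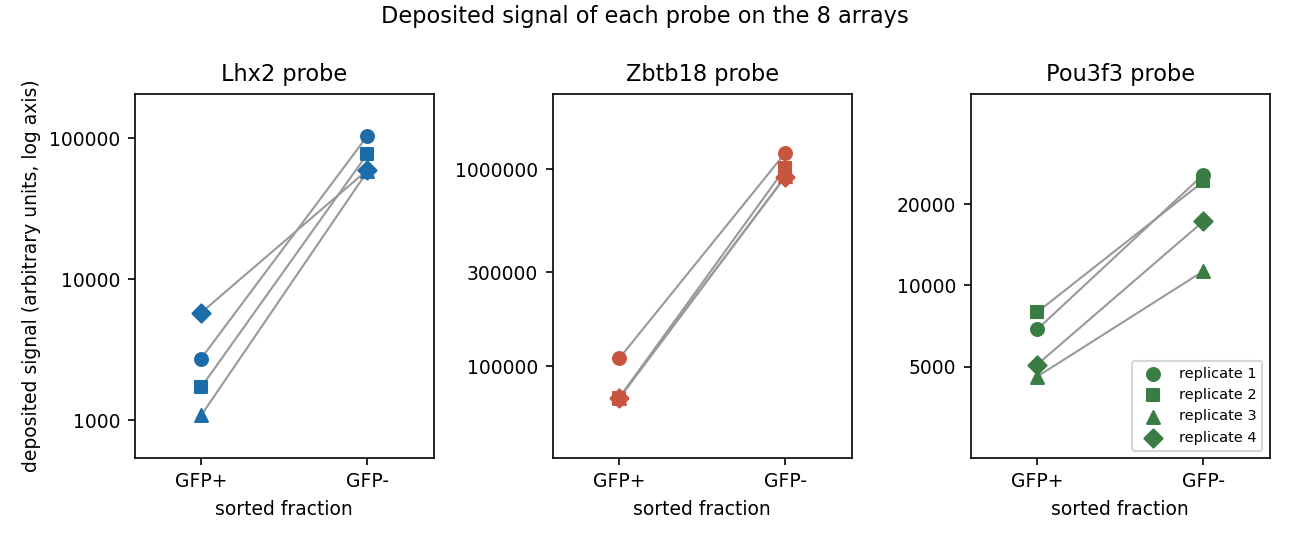
Deposited signal (arbitrary units, log axis, each panel with its own range) of the Lhx2, Zbtb18 and Pou3f3 probes on the GFP+ arrays (left) and GFP- arrays (right). Lines join arrays of the same replicate number; all 12 lines run from a lower GFP+ value to a higher GFP- value, and that of Lhx2 replicate 4 is flatter than its other 3.

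All 3 genes had a signal of at least 3 times the noise on all 8 arrays, so none passed the filter on dim probes through the GFP- arrays alone. All 3 had every GFP+ array below every GFP- array, as did 11.1% of the 16875 tested probes. All 3 were lower in GFP+ cells in all 4 same-numbered pairs, as were 21.2% of the tested probes. Over all tested probes limma called 9.1% lower in GFP+ cells at an adjusted p of 0.05. A block for the replicate number raised the calls over all probes to 4043 (24.0%), in place of 2441, and 13.1% were then called lower. The genes were picked from this contrast, so no test is given for them and nothing is read from these shares.

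The rank of each gene among all probes places the size of its difference. Counted from the most negative difference, Lhx2 ranked 41, Zbtb18 ranked 158 and Pou3f3 ranked 989 of the 16875 tested probes. Lhx2 and Zbtb18 were thus in the lowest 1% of differences, which ended at −3.60, and Pou3f3 in the lowest 5.86%. The median difference over all tested probes was 0.09. The ranks depend on which probes and arrays are counted. Among the 12509 probes above the noise limit on all 8 arrays, as the 3 genes were, Lhx2 ranked 12, Zbtb18 44 and Pou3f3 351. Within replicates 1 and 2 Lhx2 ranked 12 of 16875, and within replicates 3 and 4 it ranked 98. Within single pairs Lhx2 ranked 21, 17, 40 and 257, Zbtb18 166, 103, 276 and 236, and Pou3f3 819, 1091, 1755 and 1013. In pair 4, the pair of the noisy spot, Lhx2 ranked behind Zbtb18.

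**Figure D3:**
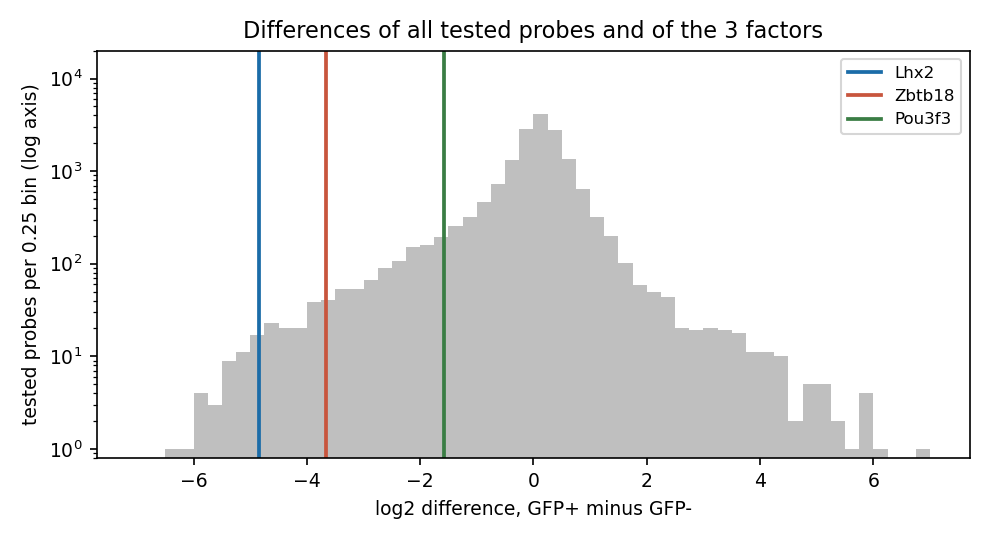
Log2 difference, GFP+ minus GFP-, of the 16875 tested probes (grey bars, 0.25 per bin, count on a log axis), with vertical lines for Lhx2 (−4.85), Zbtb18 (−3.67) and Pou3f3 (−1.58). Lhx2 and Zbtb18 lie in the thin lower tail and Pou3f3 nearer the bulk.

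The place of each probe on its own array needs no scaling between arrays. The Lhx2 probe was brighter than 62.65%, 62.57%, 56.17% and 75.03% of gene probes on GFP+ arrays 1 to 4, and than 94.7% to 95.8% on the GFP- arrays. Zbtb18 stayed among the bright probes, above 95.1% to 96.0% of them on the GFP+ arrays and 99.7% to 99.9% on the GFP- arrays. Pou3f3 was above 72.6% to 79.0% on the GFP+ arrays and 81.5% to 89.0% on the GFP- arrays. The shift had the same direction for each gene in every pair. In normalized signal, 21.2% of all tested probes were lower in GFP+ cells in all 4 pairs. The brightness of a probe depends on the probe as well as the transcript, so these places compare a probe with itself and not the genes with each other.

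The sizes of loss were then set against each other within each pair, where each pair of genes was read on the same arrays. For Lhx2 against Zbtb18 the difference between their log2 differences was −1.47, −1.40, −1.94 and 0.10 in pairs 1 to 4, a mean of −1.18 ± 0.89 (SD, n = 4 pairs). Lhx2 thus lost more signal than Zbtb18 in 3 of 4 pairs, and in pair 4 the values were nearly equal. Without pair 4 the mean was −1.60 ± 0.30 (SD, n = 3 pairs). The order of Lhx2 and Zbtb18 therefore has 1 exception, in the pair that holds the noisy Lhx2 spot. Whether noise made that exception was not tested.

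Zbtb18 lost more signal than Pou3f3 in 4 of 4 pairs. The difference between their log2 differences was −1.72, −2.36, −2.48 and −1.77, a mean of −2.08 ± 0.40 (SD, n = 4 pairs). The fold change of Zbtb18 was thus 4.24 times that of Pou3f3. Lhx2 also lost more than Pou3f3 in 4 of 4 pairs, with −3.18, −3.76, −4.43 and −1.67 and a mean of −3.26 ± 1.18 (SD, n = 4 pairs). These 3 comparisons share the contrast from which the genes were picked and carry no test. On an array, a change in true level can be compressed for probes near the background or very bright, and this was not measured here.

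**Figure D4:**
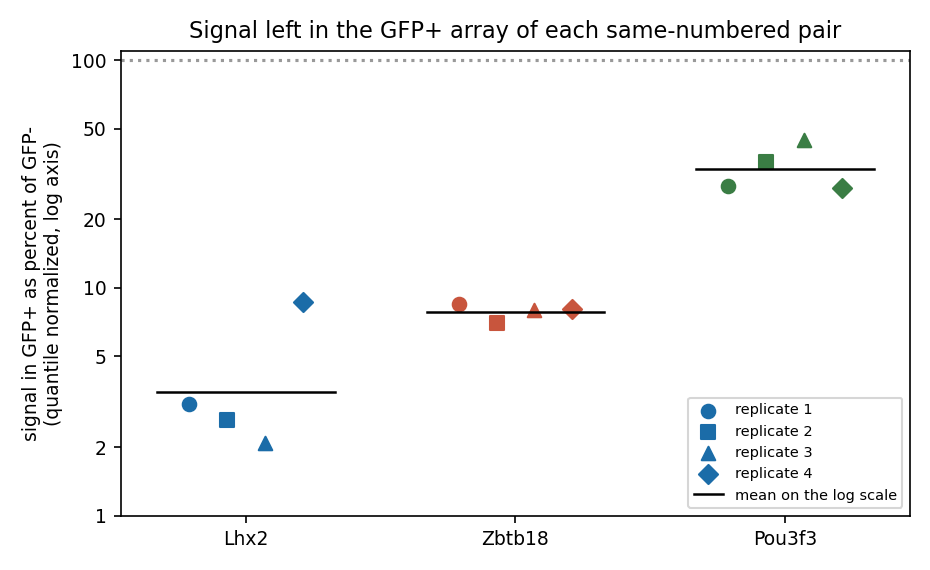
Normalized signal on each GFP+ array as a percent of the same-numbered GFP- array (log axis), for Lhx2, Zbtb18 and Pou3f3, with 1 point per pair and a black line at the mean on the log scale. The Zbtb18 points lie between 6.98% and 8.54%, those of Pou3f3 between 27.5% and 44.6%, and 3 Lhx2 points between 2.08% and 3.09% with replicate 4 at 8.63%.

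The arrays fell into 2 sets by their hybridization control spots, with a mean log2 signal of 15.95 to 16.27 on replicates 1 and 2 and of 17.13 to 17.35 on replicates 3 and 4. Each set held both fractions. Within replicates 1 and 2 the differences were −5.13 for Lhx2, −3.70 for Zbtb18 and −1.66 for Pou3f3. Within replicates 3 and 4 they were −4.56, −3.64 and −1.51 in the same order. The in vitro transcription kit control spots also set 1 array apart, GFP- replicate 2, with a mean log2 signal of 17.11, against 13.87 to 15.44 on the other 7 arrays. Without that array the differences were −4.79 for Lhx2, −3.63 for Zbtb18 and −1.42 for Pou3f3. The order of the 3 genes was the same in each of these subsets, which the values on the single arrays had already fixed.

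Few relatives of the 3 genes could be read beside them, because only 317 probes, 0.96% of the gene probes, could be paired with a symbol. None of the 31 other pallial and glutamatergic transcription factors on the list, the 21 other LIM-homeodomain factors and cofactors, or the 20 GABAergic lineage factors was among them. Of POU factors and their Sox partners, Sox11 was matched beside Pou3f3. Of BTB zinc-finger factors, Zbtb18 alone was matched. Marker genes of GABAergic neurons (17 listed) and of excitatory neurons (10 listed) were likewise not analysed here, so the purity of the sort could not be read from them. The word pallial thus rests on what is known of the 3 genes and was not checked on these arrays.

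Sox11, an HMG-box factor of newly born neurons of several lineages, did not pass the test. Its normalized log2 signal was 14.83, 15.83, 15.92 and 16.24 on GFP+ arrays 1 to 4, against 15.90, 16.12, 16.06 and 16.14 on GFP- arrays 1 to 4. The groups overlapped, and GFP+ replicate 1 read lowest of all 8. The difference was −0.35 ± 0.29 (SE; limma adjusted p = 0.511, over all tested probes). This does not show that Sox11 was equal in the fractions.

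A wider view came from all 25 other DNA-binding factor genes with a matched probe, picked by symbol. Of these, 15 were tested, with differences from −2.54 to 0.71 on the log2 scale and a median of −0.04. In limma 1 of the 15 passed lower, Cebpb, a bZIP factor of myeloid cells and other tissues. None of the 15 passed higher (5.37% of all tested probes did), while 3 were higher at an unadjusted p under 0.05 and 0 at an adjusted p of 0.05 with the replicate block. This is 6.67% of the 15 passing, against 14.5% of all tested probes. Whatever the p, 8 of the 15 differences were below 0 and 7 above it, and apart from Cebpb the lowest was −1.01. Sox3, an HMG-box factor of neural progenitors, had a normalized log2 signal of 13.59 ± 0.14 in GFP+ cells and 13.01 ± 0.30 in GFP- cells (SD, n = 4 each; difference 0.59 ± 0.19 SE; limma adjusted p = 0.0776).

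The named genes most like each factor were found by the root mean square distance between their log2 profiles over the 8 arrays, each centred on its own mean, among 163 tested probes with a symbol. Such a distance weighs the size of the difference as well as its shape, and all profiles share the same arrays. Nearest to Lhx2 were the alpha-globin gene Hba-a1 at 0.78, Zbtb18 at 0.81 and the brain metallothionein gene Mt3 at 1.07. Hba-a2 is nearly identical to Hba-a1, so that probe can read both. Hba-a1 differed by −4.75 ± 0.23 and Mt3 by −3.49 ± 0.36 (SE).

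Nearest to Zbtb18 were Bcl2a1b at 0.56, Mt3 at 0.56 and Hba-a1 at 0.67. Bcl2a1b, an anti-apoptotic BCL2-family gene that has near-identical copies, was not well above background on any GFP+ array, so its distance rests on dim values. Nearest to Pou3f3 were Nt5dc3 at 0.46, a gene named for a 5′-nucleotidase domain, Heg1 at 0.48, a membrane protein gene of endothelial cells, and Rap2b at 0.58, a small GTPase gene. Their differences were −1.75 ± 0.29, −1.95 ± 0.21 and −0.99 ± 0.23 (SE). Many probes without a symbol lay nearer, 33 to Lhx2, 112 to Zbtb18 and 158 to Pou3f3.

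A marker of 1 other cell type was also lower in GFP+ cells. Of the 6 erythrocyte markers listed Hba-a1 alone was matched, and its log2 signal was 14.11 to 15.13 on the GFP+ arrays and 19.05 to 19.45 on the GFP- arrays. Its signal in GFP+ cells was lowest in replicate 4, where that of Lhx2 was highest. Of the 7 pan-neuronal markers listed Snap25 alone was matched, and its 1 probe was not well above background on any of the 8 arrays. Whether that probe detects its transcript was not tested. The markers of radial glia, astrocytes, the oligodendrocyte lineage, microglia, endothelial cells and meningeal fibroblasts were not analysed here. The difference of Hba-a1, −4.75, was near that of Lhx2, −4.85. The part of red blood cells or other cell types in the differences of Lhx2, Zbtb18 and Pou3f3 was not tested. Whether the signal left in the GFP+ fraction came from GABAergic cells or from other cells sorted with them was likewise not tested.

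**Figure D5:**
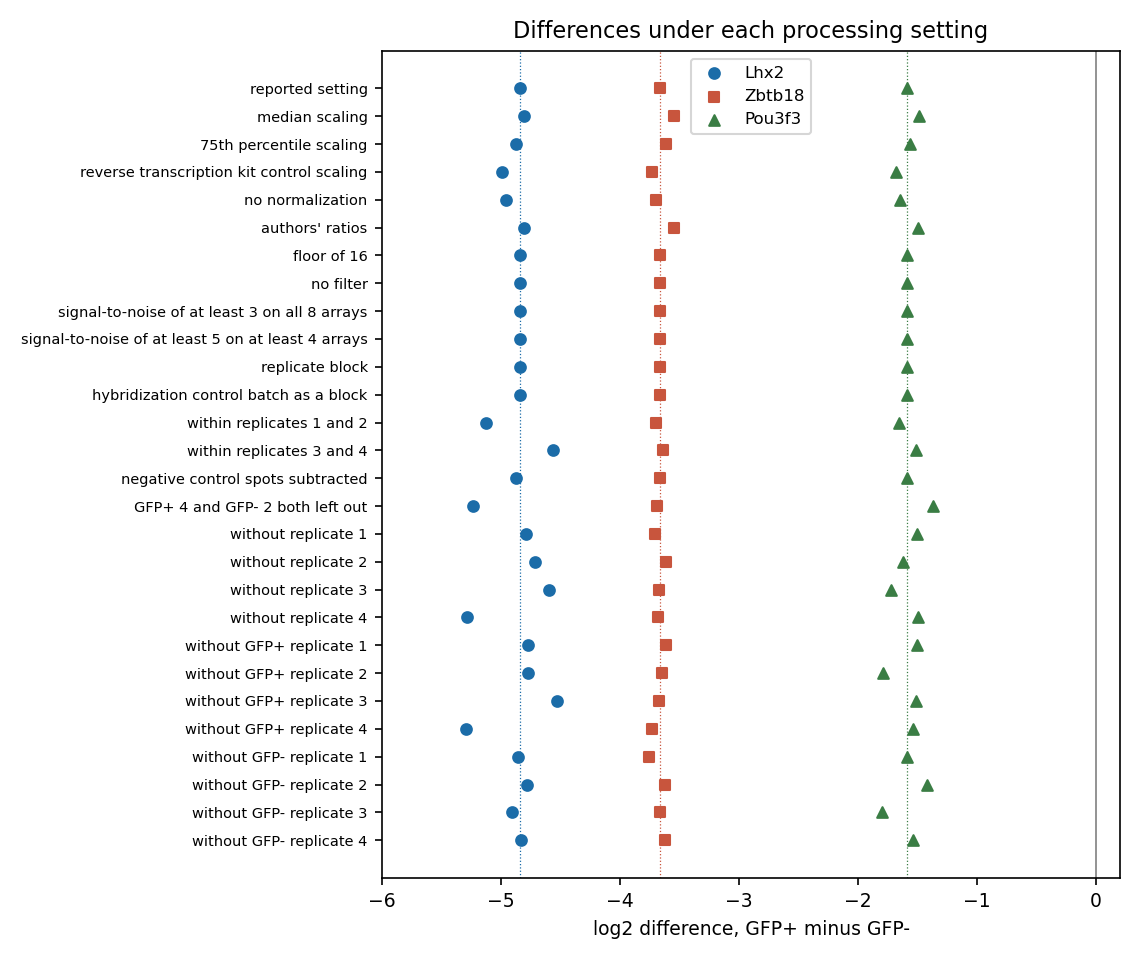
Log2 difference, GFP+ minus GFP-, of Lhx2, Zbtb18 and Pou3f3 under the reported setting (top row) and under 27 other settings, including those that leave out arrays; dotted lines mark the reported values. Filters, blocks, scalings of whole arrays and the sets of arrays left out here cannot change the order of the 3 genes. It is the same in the other rows. Lhx2 spreads most, from −5.30 to −4.53.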

How the data were processed

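The labels give 4 GFP+ and 4 GFP- samples, and the column names of the array tables match their titles. The authors deposited signal intensity on a linear scale for each spot, beside a score of signal over noise and a quality flag, per the file headers. The sources used here name no scanner, extraction software or background step. The authors' deposited matrix holds a ratio per probe, which equals the signal over the array's median and was tried as another input.

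Signals were floored at 1, taken to log2 and quantile normalized over 8 arrays. A probe was tested if its signal-to-noise score reached 3 on 4 or more arrays (16875 of 33012). The test was limma 3.58.1 in R 4.3.3, without a block, with Benjamini-Hochberg adjustment at 0.05. The procedure was tested on simulated data. The number of arrays limits precision. Once group means were removed, arrays of the same number correlated at 0.347 to 0.517 and other combinations at −0.389 to 0.162. Values per pair therefore join arrays by number, from this check and because each deposited table holds 1 number; the fit and its standard errors leave the pairs out. Symbols came from the RefSeq table of GRCm38.p6 (317 probes, 311 genes). Members, gene lists and tests were chosen with earlier results of these data known. Named genes were the 3 members, matched members of the lists, the 3 nearest genes to each, and DNA-binding factors picked by symbol after the array's names and the earlier results had been seen.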

Additional observations from a re-analysis of the deposited data

Results flagged for a closer look

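Of 6 sets of 4 arrays, 1 had a value far from the rest of its group. Chance gives about 1 in 20 for each set, so 1 among 6 sets is not read as an excess. Pou3f3 on GFP+ replicate 2 had a normalized log2 signal of 13.19, against 12.34 to 12.44 on the other GFP+ arrays, a gap of 0.883 of the group's range. Without that array Pou3f3 averaged 12.39 ± 0.05 in GFP+ cells (SD, n = 3), and its difference from GFP- cells was −1.79. The signal-to-noise score of that spot was 28.4, and its noise was 1.22 times the median of probes of like signal. The noisy Lhx2 spot on GFP+ replicate 4 had a gap of 0.681 of its group's range and was not past the limit for 4 values.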

How the results depend on the processing

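The 3 differences stayed below 0 under 15 other settings and when each array or pair was left out. In the reported normalization every GFP+ array lay below every GFP- array, so leaving out arrays could not raise a difference above 0. The filters and blocks cannot move the differences, the floor of 16 did not, and scaling a whole array cannot change their order. The order Lhx2, Zbtb18, Pou3f3 was the same with fewer arrays, but the values on the single arrays had already fixed this for the subsets used. It was also the same with the negative control spots subtracted. Over the 15 settings the differences were −5.24 to −4.56 for Lhx2, −3.73 to −3.54 for Zbtb18 and −1.68 to −1.37 for Pou3f3. Zbtb18 moved by more than its spread between pairs under median scaling (−3.54) and was −3.55 with the authors' ratios. Leaving out 1 array or pair gave −5.30 to −4.53, −3.76 to −3.61 and −1.80 to −1.42. The Lhx2 minus Zbtb18 difference was −1.60 to −0.86 there, Lhx2 minus Pou3f3 −3.79 to −2.87, and Zbtb18 minus Pou3f3 −2.21 to −1.87. Lhx2 ranked 16 without GFP+ replicate 4, against 41 on all arrays. Subtracting the negative control spots and leaving out GFP+ replicate 4 with GFP- replicate 2 were chosen after seeing the data. With them Lhx2 was −4.87 and −5.24, Zbtb18 −3.67 and −3.69, and Pou3f3 −1.59 and −1.37. Calls over all probes numbered 2441, and 4043 with the replicate block, 1088 within replicates 1 and 2, 1173 within replicates 3 and 4, and 1529 to 2409 with 1 array or pair left out. The lowest of these, 1529, was without pair 3. The fits within 2 pairs have fewer arrays. Signals near the noise limit Lhx2 in GFP+ cells.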
